A study of Mus musculus with 54 samples.

Results

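The inner mitochondrial membrane carries 5 protein complexes that turn reduced cofactors into ATP, and their nuclear-encoded subunits are described here across the differentiation of R1 mouse embryonic stem cells in retinoic acid. Genes of the expression table were taken by symbol: those starting with Nduf, Uqcr or Atp5, those starting with Sdh and a letter from a to d, and those starting with Cox and a number from 4 to 8. Of 96 symbols found, 94 reached 1 FPKM (a level corrected for transcript length and library size) in at least 3 libraries, out of 14982 genes that did so and 21960 in the table. The other two, the muscle isoforms Cox6a2 and Cox8b, were below 1 FPKM in every library, except Cox8b in day-20 replicates 2 and 4 (2.31 and 4.48 FPKM). The 94 genes were 36 subunits of complex I, 4 of complex II, 8 of complex III, 18 of complex IV, 15 of complex V, 12 assembly factors and Atp5s, a regulator of ATP synthase that sits in no complex here. Ndufa4 and its paralog Ndufa4l2 were placed in complex IV, where the Ndufa4 protein resides despite its name.

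R1 is a male mouse embryonic stem cell line grown with the cytokine LIF, which keeps it undifferentiated. Per the labels, hanging drops were used to form embryoid bodies, which were then held in suspension in retinoic acid, a signal that favours neural fates. PolyA RNA libraries numbered 7, 3, 3, 5 and 4 for days 0, 2, 4, 10 and 20, all from this 1 line with no genetic change named. Nothing in the labels says whether replicate libraries are separate cultures, so p-values measure the spread between these libraries, which may be technical. The labels also do not say whether day 0 was taken before or after embryoid bodies formed. The libraries are bulk mixtures, in which fewer cells of a type and less RNA per cell cannot be told apart.

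Complex I passes electrons from NADH, and complex II those from succinate, to ubiquinone. Complex III moves them to cytochrome c and complex IV to oxygen, and all of these but complex II pump protons that complex V uses to make ATP. Cells need roughly matched amounts of the subunits within a complex, and several complex IV subunits exist in tissue isoforms from separate genes: Cox6b2, Cox7b2 and Cox8c are known from testis, Cox7a1, Cox6a2 and Cox8b from heart and skeletal muscle, and Cox4i2 and Ndufa4l2 from oxygen-poor conditions. Pluripotent cells are known for glycolysis beside respiration, and neurons for a strong reliance on respiration.

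The day-0 libraries carried markers of the labelled stem cells: a sum of 5 pluripotency genes (Pou5f1, Nanog, Sox2, Esrrb, Zfp42) lay between 1800.2 and 1969.8 FPKM in the day-0 libraries, and the highest later library was at 166 FPKM. A sum of 5 neuronal genes peaked at day 4 (mean 1245 FPKM). Sums of 5 astrocyte and radial glia genes (Gfap, Fabp7, Aqp4, Slc1a3, Aldoc) and of 4 oligodendrocyte genes were highest at day 20 (2806 and 2177 FPKM). From day 10 to day 20, 3 of the 5 astrocyte and radial glia genes rose and 2 fell by limma (adjusted p under 0.05). Of the 4 oligodendrocyte genes 3 rose and 0 fell, where 37.2% of all genes rose and 38.1% fell. Sums of 4 epithelial and 4 endoderm genes were also highest at day 20, with means of 1529 and 367 FPKM against 150 and 19.8 at day 0, and the part of any of these cell types in the day-20 changes was not tested. Sums of FPKM per library ranged from 472122 to 678222 and were lower from day 4 on, so values were also compared after rescaling each library to the same sum and after quantile normalization, which gives every library the same distribution. The day-0 libraries formed 2 sets, replicates 1 to 3 and 4 to 7, that the labels do not explain.

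The respiratory chain genes were far more abundant than a typical gene. Their median over the days was 125 FPKM against 12.0 FPKM for all genes tested, and 55 of 94 lay above 100 FPKM, against 6.15% of all genes. Together they made up 3.32% ± 0.0791 (SD, n = 7) of library FPKM at day 0 and 2.65% ± 0.0364 (SD, n = 3) at day 4. The share was 3.09% ± 0.0571 (SD, n = 3) on day 2, 3.06% ± 0.0367 (SD, n = 5) on day 10 and 3.04% ± 0.0442 (SD, n = 4) by day 20. The day-4 libraries, at 2.61% to 2.68%, lay below every library of the other days. Cox7c and Atp5b alone held 0.364% and 0.524% at day 0. Without those 2 genes the share was 2.43%, 2.58%, 2.22%, 2.80% and 2.51% on the 5 days in order, lowest at day 4 and highest at day 10.

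**Figure D1:**
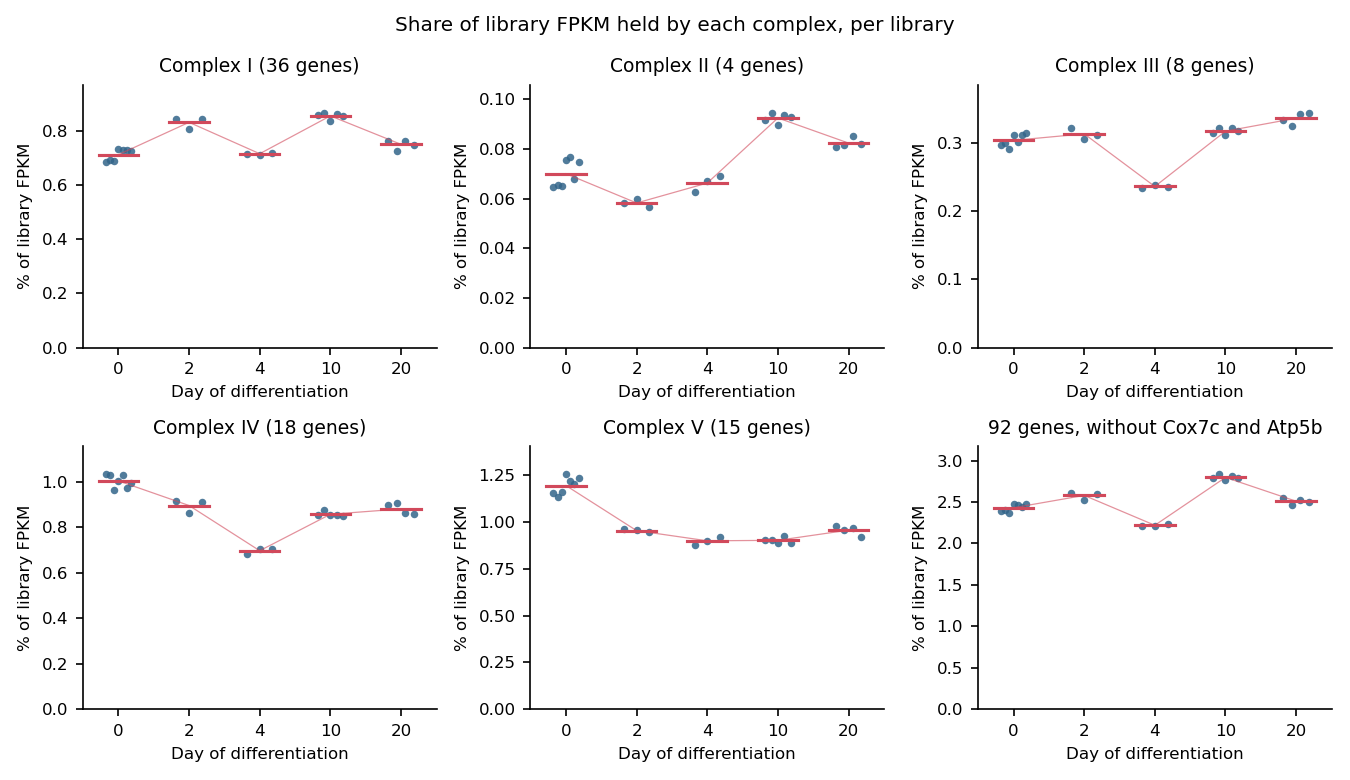
Percentage of library FPKM (vertical axis, from 0) held by the genes of each complex and by the 92 members other than Cox7c and Atp5b, for each of the 22 libraries (points), with the mean of each day (red bars) on a day axis that is not to scale. Complexes III and IV were lowest at day 4 (0.236% and 0.697%), complex II was highest at day 10 (0.0924%), and complex V stood highest at day 0 (1.19%).

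Against day 0, the 94 genes moved in both directions at day 2 and mostly downward at day 4. At day 2, 47 rose and 25 fell by limma (adjusted p under 0.05), against 42% of all genes tested rising and 32.1% falling (74.1% in either direction). At day 4, 18 rose and 62 fell, where 47% of all genes rose and 35.5% fell (82.5% in either direction). By day 10, 30 rose and 51 fell, against 54.1% and 36.4% of all genes (90.5% in either direction). By day 20, 25 rose and 56 fell, against 55.3% and 35.5% of all genes (90.8% in either direction). Almost every gene differed among the 5 days by the F test, 94 of 94 here and 99.3% of all genes, so the directions and sizes carry the description. The median log2 changes of the 94 for days 2, 4, 10 and 20 were 0.16, -0.35, -0.21 and -0.19, beside 0.07, 0.12, 0.28 and 0.38 for all genes.

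The later directions depended on scaling. For days 4, 10 and 20 the medians were -0.07, 0.23 and 0.02 with libraries rescaled to the same sum, and -0.20, 0.02 and -0.08 after quantile normalization. Signs of change were also compared, whether or not a gene was called in the other scalings. Of the 80 genes called at day 4 as deposited, 17 were higher and 51 lower by sign in all 3 scalings. The same held for 29 higher and 36 lower of 81 at day 10, and for 21 higher and 46 lower of 81 by day 20. The median of the members minus that of all genes was -0.47, -0.48 and -0.57 as deposited, -0.39, -0.39 and -0.55 after rescaling, and -0.15, 0.09 and 0.02 after quantile normalization. The split of higher and lower calls was 30 and 43 at day 4, 51 and 26 at day 10, and 42 and 37 by day 20 after rescaling. After quantile normalization it was 23 and 52, 42 and 33, and 32 and 44.

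The step from day 2 to day 4 was mostly downward in each scaling. Over it 72 genes fell and 3 rose by limma, against 34% of all genes falling and 38% rising (72% in either direction). With libraries rescaled 48 fell and 17 rose, and after quantile normalization 63 fell and 8 rose. The median was -0.50 as deposited, -0.21 after rescaling and -0.28 after quantile normalization. As deposited, 29 of 36 genes of complex I fell, 8 of 8 of complex III, 15 of 18 of complex IV and 13 of 15 of complex V, but in complex II only Sdhd did. After rescaling the genes that fell numbered 19, 5, 11 and 7 in those complexes, and in complex II 2 rose and 1 fell. After quantile normalization they numbered 26, 7, 12 and 7, with 1 higher and 1 lower in complex II. The 3 of the 94 that rose as deposited were Atp5a1, Sdhaf1 and Ndufaf3, and for Atp5a1 the change was 0.08 (adjusted p = 0.0488 by limma) and missed the threshold without day-2 replicate 1 or 3, or without day-4 replicate 2 or 3. Ndufaf3 (0.38 as deposited) missed it after quantile normalization (0.13) and without day-2 replicate 2 or 3, or without day-4 replicate 1 or 2. From day 4 to day 10 the direction turned: 47 rose and 18 fell (41.4% and 32.3% of all genes, 73.7% in either direction), with a median of 0.17 as deposited, 0.33 after rescaling and 0.27 after quantile normalization. From day 10 to day 20, 37 rose and 35 fell (37.2% and 38.1% of all genes, 75.2% in either direction), but 19 and 52 after rescaling and 24 and 49 after quantile normalization. As deposited, the day of the highest mean was day 2 for 44 of the 94, day 0 for 27, day 10 for 15, day 20 for 7 and day 4 for 1, and 34 had their lowest mean at day 4. Mean library sums were 661480 FPKM at day 0 and 669449 at day 2, against 546111 at day 4 and 487725 at day 10. Peak days were not counted in the other scalings or over all genes, so their dependence on scaling is not known.

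**Figure D2:**
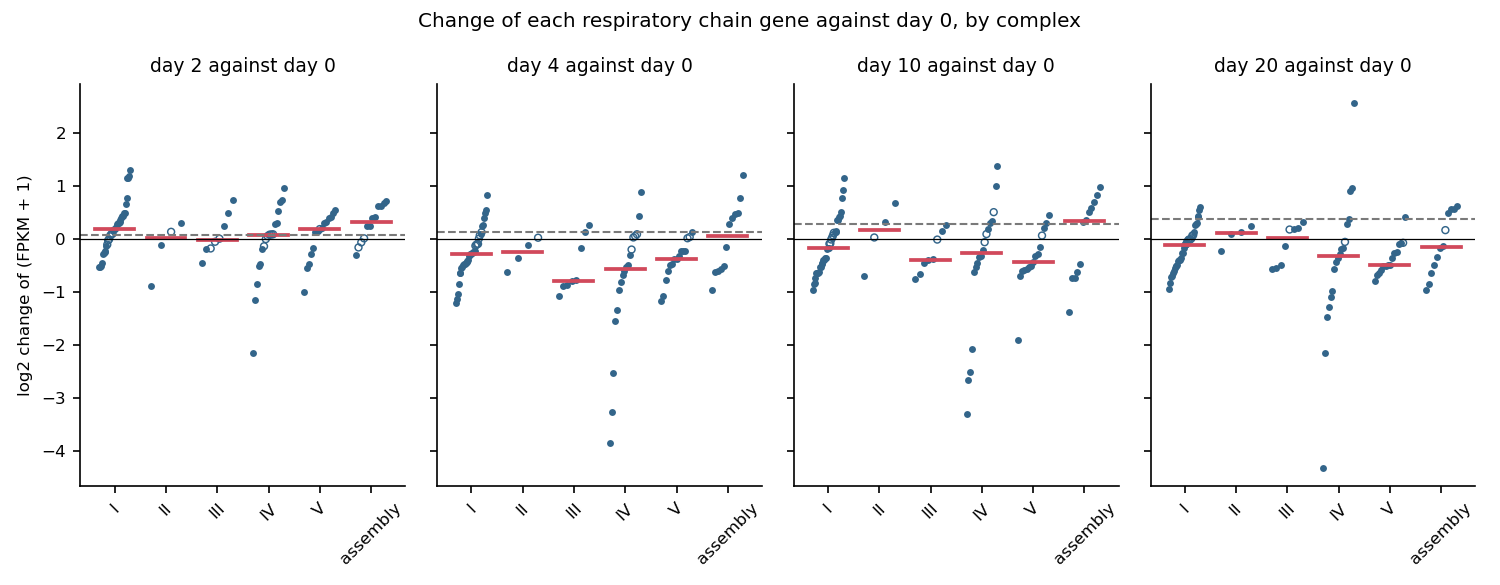
Change of each gene against day 0 on the log2(FPKM + 1) scale, as deposited, for days 2, 4, 10 and 20, with genes ordered by change within complexes I to V and the assembly factors. Filled points passed limma at an adjusted p under 0.05, open points did not, red bars are group medians and the dashed line is the median of all genes tested, and at day 4 the medians of complexes III (-0.79) and IV (-0.56) lie lowest.

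The medians of the complexes differed, but their genes spread widely. At day 4 the median change against day 0 was -0.79 in complex III, -0.56 in complex IV, -0.37 in complex V, -0.28 in complex I and -0.24 in complex II, which has 4 genes. The quartiles over genes were -0.88 and -0.10 in complex III and -0.48 and 0.02 in complex I. Without its tissue isoforms, complex IV had a median of -0.51 at day 4 and -0.25 at day 20, as deposited. Complexes III and IV stood lower than the median of the 94 in all 3 scalings, with complex III minus all members at -0.44 as deposited and -0.37 after quantile normalization, and complex IV at -0.21 and -0.11. At day 20 the order differed: as deposited, complex V had the lowest median (-0.49, 13 of 15 genes lower), complex IV -0.33, complex I -0.12, complex III 0.01 and complex II 0.11. The low place of complex V at day 20 depended on scaling. Its median minus that of all members was -0.30 as deposited and -0.01 after quantile normalization, while after rescaling it still lay below the median of all members. The genes of complex V lower at day 20 numbered 9 of 15 after rescaling (median -0.24) and 8 of 15 after quantile normalization (median -0.09). Of the 94 genes, 72 had day-4 libraries entirely above or below the day-0 libraries, against 75.9% of all genes, a share near the background. Libraries did not overlap with day 0 for 64 of the 94 on day 2 (65.4% of all genes), 71 on day 10 (82.2%) and 63 by day 20 (81.9%). They did not overlap for 76 between days 2 and 4 (78.1%) and for 63 between days 10 and 20 (69.1%).

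Complex I takes electrons from NADH through a hydrophilic arm built on core subunits. Ndufs1, the largest iron-sulfur subunit of that arm, fell from 84.9 ± 3.87 FPKM (SD, n = 7) at day 0 to 59.1 ± 2.43 (SD, n = 3) at day 2 and 47.2 ± 1.92 (SD, n = 4) at day 20. Ndufv1, which binds NADH and FMN, fell from 159 ± 6.76 FPKM (SD, n = 7) to 109 ± 2.02 (SD, n = 3) at day 2, with 88.7 at day 10 and 109 at day 20. Both fell at every later day in all 3 scalings, by 0.50 to 0.84 on the log2 scale as deposited. Ndufs3, a core subunit of the hydrophilic arm, ranged over 0.17 log2 units across the day means, the least of all 94 genes. Ndufs7, Ndufs8 and Ndufv2, other iron-sulfur core subunits, had mean levels of 88.4 to 153, 42.2 to 54.0 and 77.1 to 130.3 FPKM over the days.

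A few accessory subunits of complex I had a time course of their own. As deposited, the 4 genes that rose more than 2-fold at day 2 were all in complex I, which holds 36 of the 94: Ndufc1, Ndufa5, Ndufab1 and Ndufa3. The share of all genes rising that far was not counted. For Ndufab1 and Ndufc1 the day-2 means (241 and 214 FPKM) were less than 2-fold above day-0 replicates 1 to 3 alone (132 and 112 FPKM). Ndufab1, the mitochondrial acyl carrier protein, had day-0 levels of 87.2 to 134 FPKM with a median of 103, and levels of 258, 225 and 239.7 FPKM at day 2. At day 4 its libraries read 151, 149 and 158 FPKM, and at day 10 they read 199, 201, 219, 199.98 and 207 FPKM. At day 20 they read 77.8, 80.4, 59.0 and 53.3 FPKM, below every library of the other days. Its log2 change was 1.14 ± 0.131 (SE) at day 2 and -1.61 ± 0.127 (SE) from day 10 to day 20 (adjusted p = 2.02e-10 by limma).

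Ndufc1, a small subunit of the membrane arm, followed the same course. It had 63.2 to 122 FPKM at day 0 with a median of 78.7, and 226, 205 and 211 FPKM at day 2. At day 10 its 5 libraries lay between 178 and 205 FPKM. At day 20 its libraries read 62.8, 47.3, 66.2 and 69.9 FPKM, within or below the day-0 range. The log2 change was 1.29 ± 0.156 (SE) at day 2 and -1.65 ± 0.151 (SE) from day 10 to day 20. Both genes stood apart within day 0: Ndufab1 had a mean of 132 FPKM in replicates 1 to 3 and 94.0 in replicates 4 to 7, and Ndufc1 had 112 and 72.1 FPKM. For Ndufc1 the fall between day 0 and day 20 (-0.50 as deposited) missed the threshold after rescaling to the same sum (-0.26, adjusted p = 0.0917 by limma).

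Ndufa5 and Ndufa3 rose at day 2 and were lower again later. Ndufa5, an accessory subunit of the hydrophilic arm, rose from a mean of 115 FPKM at day 0 to 264 at day 2 and stood at 109.7 at day 20. Ndufa3 rose from 117 to 261 FPKM at day 2 and then stayed between 153 and 170.1 FPKM. In the other direction, Ndufs6, Ndufb4 and Ndufb6 were the 3 complex I genes that fell more than 2-fold at day 4 as deposited (named after their values were seen). All 3 passed limma in each scaling, but after rescaling none of them fell more than 2-fold (the furthest was Ndufb4, at -0.94), and after quantile normalization only Ndufb4 did (-1.23). Ndufa7 and Ndufb8, the most abundant subunits of this complex, had day-0 means of 401 and 281 FPKM and day-10 means of 203 and 194 FPKM. Ndufa7 fell in all 3 scalings at day 10, while for Ndufb8 the change passed the threshold at neither day 4 nor day 10 after rescaling.

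**Figure D3:**
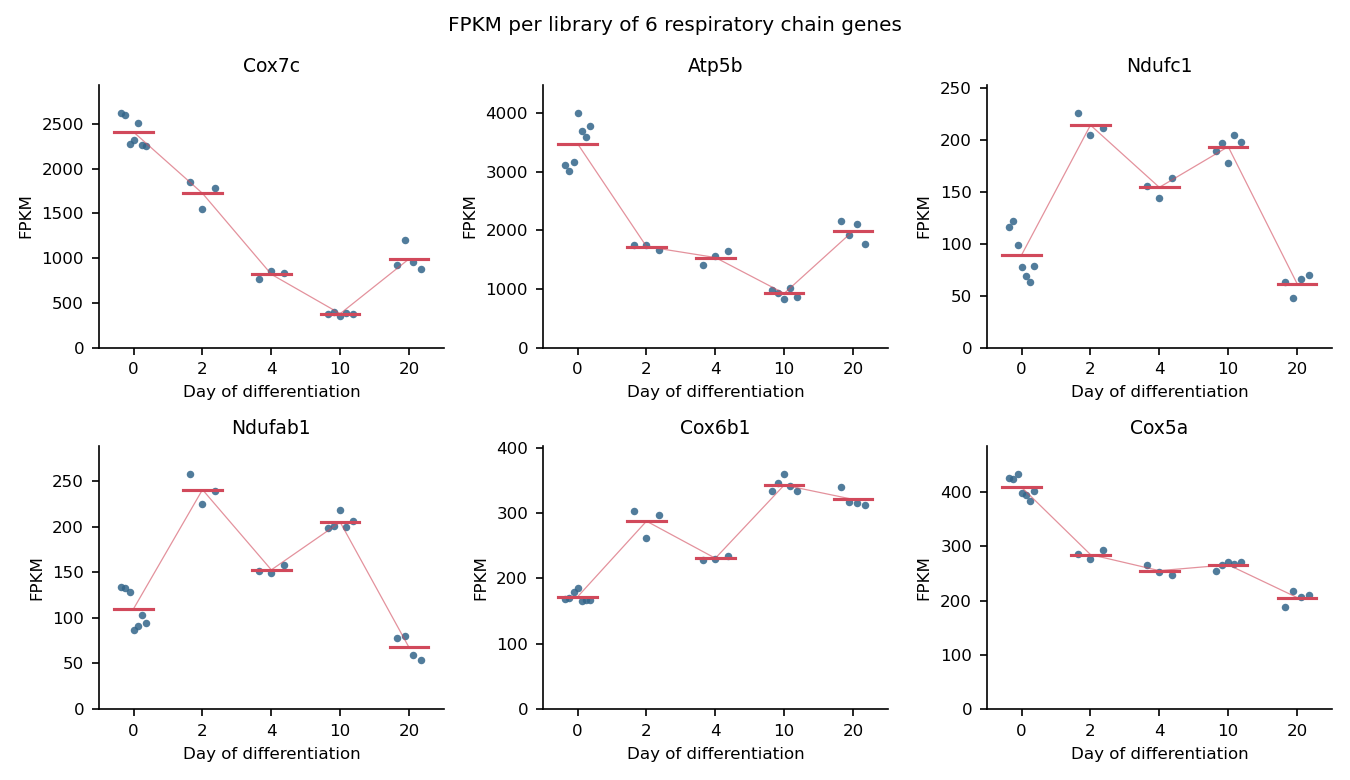
FPKM (vertical axes, from 0) of 6 genes in each of the 22 libraries (points) with the mean of each day (red bars), on a day axis that is not to scale. Cox7c and Atp5b fell to day 10 (means 378 and 923 FPKM) and were higher again at day 20, Ndufc1 and Ndufab1 were high from day 2 to day 10 and low at day 20, Cox6b1 was lowest at day 0, and Cox5a was highest at day 0.

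Complex II is also an enzyme of the citric acid cycle and holds no subunit encoded by mitochondrial DNA. Its flavoprotein Sdha had 173 to 241 FPKM at day 0 with a median of 199, and 111, 121 and 99.6 FPKM at day 2. No day-2, day-4 or day-10 library of Sdha reached the lowest day-0 library, and its day-20 libraries (155.7 to 194 FPKM) overlapped day 0. Its log2 change was -0.88 ± 0.108 (SE) at day 2 (adjusted p = 2e-07 by limma). The membrane anchor Sdhc went the other way at day 10, from a mean of 74.2 ± 6.92 FPKM (SD, n = 7) to 119 ± 6.69 (SD, n = 5), a log2 change of 0.68 ± 0.0586 (SE). The iron-sulfur subunit Sdhb and the anchor Sdhd moved less, with day means of 81.4 to 110.5 and 73.3 to 117 FPKM.

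In complex III 6 of 8 genes fell at day 4 and Uqcrfs1 and Uqcrh rose, as deposited. Uqcrq and Uqcr11, small subunits and the most abundant of this complex, had medians of 399 and 353 FPKM at day 0. At day 4 Uqcrq read 208, 209.7 and 218 FPKM, and Uqcr11 read 209, 196 and 204 FPKM. All day-4 values lay below all day-0 values for both genes. The day-20 libraries of Uqcr11, with 345.6 to 452 FPKM, overlapped day 0. Uqcrc1, a core subunit of the matrix side, fell from 182 ± 10.6 FPKM (SD, n = 7) to 104 ± 2.34 (SD, n = 3) at day 4, while the paired core subunit Uqcrc2 was among the least variable genes, with day means of 86.9 to 98.0 FPKM. Uqcrfs1, the Rieske iron-sulfur protein, rose from 83.5 ± 3.58 FPKM (SD, n = 7) to 117 ± 5.35 (SD, n = 3) at day 2, a log2 change of 0.48 ± 0.0391 (SE). Cytochrome c1 (Cyc1), which the symbol rule leaves out, fell from 196 FPKM at day 0 to 113 at day 4 and 104 at day 20.

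Complex V held the most abundant gene of the module. Atp5b, the catalytic beta subunit, had 3006 to 4003 FPKM at day 0 with a median of 3581, and 1753, 1756 and 1657 FPKM at day 2. At day 10 its libraries read 979, 922, 836, 1019.5 and 860.2 FPKM, and at day 20 they read 2165, 1912, 2105 and 1761 FPKM. Day 0 lay above every later library. The log2 change was -1.91 ± 0.0726 (SE) at day 10 (adjusted p = 1.1e-16 by limma) as deposited, -1.47 after rescaling and -0.67 after quantile normalization, which sets the highest genes of each library to fixed values. The fall at day 20 (-0.80) missed the threshold after quantile normalization (-0.09, adjusted p = 0.225 by limma). Atp5a1, the alpha subunit that assembles with beta in equal number, fell from 573 ± 10.2 FPKM (SD, n = 7) to 389 ± 10.1 (SD, n = 3) at day 2 and stood at 357 ± 6.72 (SD, n = 4) at day 20. Atp5b exceeded Atp5a1 at every day. After quantile normalization the day-10 change of Atp5a1 (-0.51 as deposited) did not pass. Atp5c1, the central gamma subunit, ranged over only 0.40 log2 units.

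Subunit c, the proton-carrying ring, is made from 3 genes whose mature proteins are the same. Atp5g1 held 24.7% ± 1.24 (SD, n = 7) of their summed FPKM at day 0, 16.9% ± 0.434 (SD, n = 3) at day 4 and 28.3% ± 0.759 (SD, n = 5) at day 10. Atp5g2 held 30.3%, 37.0% and 29.3% on those days, and Atp5g3 held 42.3% to 46.1% at all days. The log2 ratio of Atp5g2 to Atp5g1 was higher by 0.83 at day 4 than at day 0 (2-sided exact permutation p = 0.0167, adjusted 0.0267, n = 3 and 7). It was lower by 0.24 at day 10 (2-sided exact permutation p = 0.00505, adjusted 0.0186, n = 5 and 7). The summed level of the 3 genes was 1420.1 FPKM at day 0 and 1557 at day 2, then 985, 986 and 977 FPKM on days 4, 10 and 20.

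Among the shared subunits of complex IV, Cox7c fell furthest. It had 2255 to 2623 FPKM at day 0 with a median of 2320.3, and 1845, 1545 and 1777 FPKM at day 2. At day 4 it read 768, 857 and 829.9 FPKM, and at day 10 it read 373, 397, 357, 388 and 377 FPKM. At day 20 it read 926, 1200.5, 953 and 882 FPKM. Libraries of days 0, 2, 4 and 10 did not overlap with each other. The log2 change was -2.66 ± 0.0653 (SE) at day 10 (adjusted p = 3.43e-20 by limma) and 1.38 ± 0.0748 (SE) from day 10 to day 20. The changes of Cox7c against day 0 were smaller after quantile normalization, at -0.76 for day 4 (-1.55 as deposited), -1.80 for day 10 and -0.31 for day 20 (-1.29 as deposited), and each still passed limma. Cox5a, one of the early-assembled subunits, fell at every later day in all 3 scalings, from 409 ± 18.7 FPKM (SD, n = 7) at day 0 to 205.5 ± 12.3 (SD, n = 4) at day 20 (named after its values were seen). Cox8a, by contrast, fell to 295 ± 6.23 FPKM (SD, n = 3) at day 4 and rose to 637 ± 15.0 (SD, n = 5) at day 10 from 518 ± 31.7 (SD, n = 7) at day 0. Cox4i1, the largest nuclear-encoded subunit, changed direction with scaling: its log2 change at day 10 was -0.34 as deposited, 0.10 after rescaling and 0.54 after quantile normalization.

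Several tissue isoforms of complex IV moved apart from their partners. Of 10 isoform pairs tested at 4 later days, 27 of 40 log2 ratios differed from day 0 by exact permutation tests, and 25 of 32 among the 8 pairs whose isoform is one of the 94 genes. These pairs include 2 of subunit c, above. Ratios of other gene pairs were not tested. Since 74.1% to 90.8% of all genes passed limma against day 0, these counts alone do not set the isoform pairs apart. The pairs of Cox6a2 and Cox8b are not read, because with the isoform this low their ratio follows the partner. Cox8c and Cox4i2 were low too, with highest day means of 2.30 and 3.11 FPKM. Their ratios are kept among the 32 but can also follow the partner in part. The smallest 2-sided p these exact tests can give is 0.0167 for days 2 and 4, 0.00253 for day 10 and 0.00606 for day 20. Within either set of day-0 libraries alone the tests cannot pass the adjusted threshold.

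Cox6b2 and Cox6b1 encode a small subunit that caps the intermembrane side of complex IV. Cox6b2 had 149.8 to 186 FPKM at day 0 with a median of 167, and 98.3, 86.5 and 91.6 FPKM at day 2. At day 4 it read 26.46, 28.02 and 30.25 FPKM, at day 10 it lay between 35.6 and 43.4 FPKM, and at day 20 it read 31.3, 37.1, 41.5 and 38.2 FPKM. The somatic Cox6b1 had 166 to 186 FPKM at day 0, 303, 262 and 298 FPKM at day 2, and 312.5 to 339.5 FPKM at day 20. The 2 genes were thus level at day 0 and separated fully by day 2. Cox6b2 held 49.2% ± 2.58 (SD, n = 7) of the pair at day 0, 24.3% ± 0.655 (SD, n = 3) at day 2 and 10.9% ± 0.523 (SD, n = 3) at day 4. At days 10 and 20 it held 10.2% and 10.4%. The log2 ratio was lower by 2.94 at day 4 (2-sided exact permutation p = 0.0167, adjusted 0.0267, n = 3 and 7) and by 3.04 at day 20 (2-sided exact permutation p = 0.00606, adjusted 0.0186, n = 4 and 7).

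Cox7b2 and Cox7a1 also fell. Cox7b2 had 19.9 to 33.3 FPKM at day 0 with a median of 27.8, and 4.77, 5.39 and 5.89 FPKM at day 2. At day 4 it read 1.23, 0.65 and 1.02 FPKM, and at day 20 it read 0.19, 0.19, 0.73 and 0.63 FPKM. Its share of the pair with Cox7b went from 16.6% ± 2.79 (SD, n = 7) at day 0 to 3.07% at day 2 and 0.40% at day 20. Its log2 change of -4.31 ± 0.137 (SE) at day 20 (adjusted p = 3.66e-18 by limma) was the largest of any of the 94 genes against day 0. Cox8c was low throughout, with means of 2.30 FPKM at day 0 and 0.16 at day 20. Cyct, the testis form of cytochrome c and no member by symbol, fell from 19.5 FPKM at day 0 to 1.06 at day 20, a log2 change of -3.38. The somatic Cycs rose from 62.1 to 161 FPKM at day 2 and fell to 31.2 FPKM at day 20.

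Cox7a1 fell to day 4 and rose from day 10 to day 20. It had 38.7 to 78.5 FPKM at day 0 with a median of 71.0, with means of 45.3 FPKM in replicates 1 to 3 and 74.1 in replicates 4 to 7. At day 4 it read 5.95, 5.53 and 4.56 FPKM. At day 20 it read 36.02, 31.46, 19.47 and 25.98 FPKM. Its share of the pair with Cox7a2 was 40.2% ± 6.68 (SD, n = 7) at day 0, 5.55% ± 0.783 (SD, n = 3) at day 4 and 27.7% ± 5.39 (SD, n = 4) at day 20. The day-20 ratio was lower than at day 0 by 0.80 (2-sided exact permutation p = 0.0182, adjusted 0.0280, n = 4 and 7), which did not pass without day-20 replicate 3 (-0.62) or replicate 4 (-0.80). Against day-0 replicates 1 to 3 alone the difference was -0.42, and against replicates 4 to 7 alone it was -1.09. A sum of 5 muscle genes ran alongside, with means of 114, 22.2, 3.12, 20.3 and 75.9 FPKM on the 5 days and ranges of 106 to 121 FPKM for day 0, 2.28 to 4.23 for day 4 and 66.4 to 88.7 for day 20. Most of it was Tagln (mean 97.7 FPKM at day 0) and Acta2, smooth muscle genes that other cells use too. Myog, which defines skeletal muscle, had a day-0 mean under 0.01 FPKM, and Myh6 and Tnnt2 had day-0 means of 1.16 and 0.32 FPKM. None of the 5 genes was at 0 in every library, and their part in the course of Cox7a1 was not tested.

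**Figure D4:**
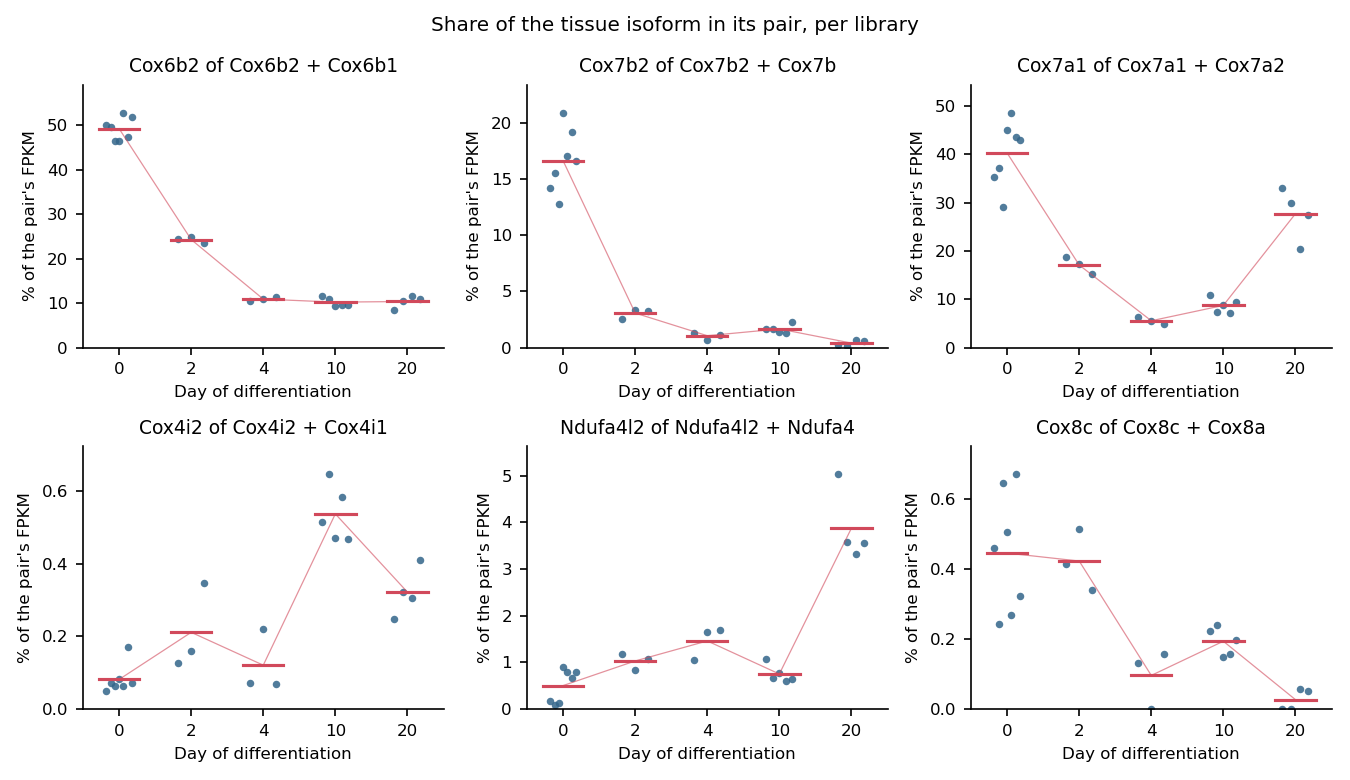
Percentage of a pair's FPKM held by the tissue isoform (vertical axes, from 0 and of different height) in each of the 22 libraries (points), with the mean of each day (red bars), on a day axis that is not to scale. Cox6b2, Cox7b2 and Cox7a1 were highest at day 0 (49.2%, 16.6% and 40.2%), Ndufa4l2 was highest at day 20 (3.88%), and Cox4i2 and Cox8c stayed under 1% of their pairs.

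For the 3 isoforms with the largest falls, the 250 bases before the gene start are shown beside those of their somatic partners to show how they differ in CG content, with CG dinucleotides in capitals. They come from RefSeq on GRCm38.p6, not the mm9 build named in the submitters' processing notes.
Cox6b2 (chr7:4753095-4753344, minus strand): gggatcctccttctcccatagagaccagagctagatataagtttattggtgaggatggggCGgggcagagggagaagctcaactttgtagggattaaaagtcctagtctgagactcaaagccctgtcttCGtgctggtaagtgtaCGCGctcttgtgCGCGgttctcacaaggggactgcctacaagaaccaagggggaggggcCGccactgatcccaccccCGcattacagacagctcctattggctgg
Cox6b1 (chr7:30626115-30626364, minus strand): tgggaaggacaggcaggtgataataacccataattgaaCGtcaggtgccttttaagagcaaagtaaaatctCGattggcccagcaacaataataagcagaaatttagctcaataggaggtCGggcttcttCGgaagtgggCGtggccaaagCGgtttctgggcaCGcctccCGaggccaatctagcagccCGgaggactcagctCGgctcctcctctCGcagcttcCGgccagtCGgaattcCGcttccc
Cox7b2 (chr5:71548206-71548455, minus strand): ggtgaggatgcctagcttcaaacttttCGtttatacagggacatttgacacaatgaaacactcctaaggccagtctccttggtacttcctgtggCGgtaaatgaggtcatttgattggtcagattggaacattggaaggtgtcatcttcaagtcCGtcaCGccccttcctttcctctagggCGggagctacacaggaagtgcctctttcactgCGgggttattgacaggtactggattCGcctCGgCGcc
Cox7b (chrX:106015450-106015699, plus strand): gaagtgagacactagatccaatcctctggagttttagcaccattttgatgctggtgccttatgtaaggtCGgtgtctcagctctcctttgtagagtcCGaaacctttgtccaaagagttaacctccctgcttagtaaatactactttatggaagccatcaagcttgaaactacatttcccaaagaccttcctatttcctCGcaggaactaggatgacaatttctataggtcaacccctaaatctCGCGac
Cox7a1 (chr7:30183921-30184170, plus strand): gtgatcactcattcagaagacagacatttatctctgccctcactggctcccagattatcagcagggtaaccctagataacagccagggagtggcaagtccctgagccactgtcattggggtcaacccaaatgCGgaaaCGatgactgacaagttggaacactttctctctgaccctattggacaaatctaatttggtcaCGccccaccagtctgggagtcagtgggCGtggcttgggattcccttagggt
Cox7a2 (chr9:79759854-79760103, minus strand): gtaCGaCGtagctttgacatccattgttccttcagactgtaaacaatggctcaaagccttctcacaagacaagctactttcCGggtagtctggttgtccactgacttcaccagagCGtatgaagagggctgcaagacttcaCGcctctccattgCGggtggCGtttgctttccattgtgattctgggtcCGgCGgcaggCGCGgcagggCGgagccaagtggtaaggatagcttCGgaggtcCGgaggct
Cox6b2 held 8 CG dinucleotides against 14 for Cox6b1, and Cox7a1 held 4 against 14 for Cox7a2, but Cox7b2 held 9 against 5 for Cox7b. The median was 15 over 77 members with a listed promoter and 15 over 11492 genes tested.

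Ndufa4l2 and Cox4i2 went up from low levels. Ndufa4l2 read 0.31 to 0.68 FPKM in day-0 replicates 1 to 3 and 2.55 to 3.19 in replicates 4 to 7. At day 20 it read 18.7, 13.7, 12.2 and 13.2 FPKM, above every library of the other days. Its log2 change at day 20 was 2.56 ± 0.285 (SE, adjusted p = 2.23e-08 by limma), and its share of the pair with Ndufa4 rose to 3.88%. Cox4i2 had a median of 0.51 FPKM at day 0 and 2.43 to 3.83 FPKM at day 10. Its log2 change at day 10 was 1.37 ± 0.153 (SE). The ratio of Cox4i2 to Cox4i1 was higher by 1.71 at day 10 (2-sided exact permutation p = 0.00253, adjusted 0.0144, n = 5 and 7) as deposited but -0.14 after quantile normalization, so its direction depended on scaling. Of a list of 15 genes known to respond to low oxygen, 11 rose and 4 fell at day 20 (8 and 5 after quantile normalization). As deposited 55.3% of all genes rose and 35.5% fell. Those that rose include Ndrg1 and Egln3, with log2 changes of 4.51 and 3.15. The list was not higher at day 20 alone: its median log2 change was 0.88, 1.25 and 1.21 for days 2, 4 and 10, and 1.21 for day 20. All genes had medians of 0.07, 0.12, 0.28 and 0.38 on those days. From day 10 to day 20 the median of the list was -0.04. The part of these listed genes in the changes of Ndufa4l2 and Cox4i2 was not tested.

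The assembly factors, which build the complexes but are not part of them, were lower in abundance. At day 4, 6 of 12 rose and 6 fell as deposited, beside 47% and 35.5% of all genes, with 6 and 5 after rescaling and 3 and 7 after quantile normalization. Sdhaf1, needed for the iron-sulfur clusters of Sdhb, read 3.36 to 5.52 FPKM at day 0 and 11.6, 11.1 and 11.1 FPKM at day 4, with a log2 change of 1.20 ± 0.107 (SE). Ndufaf3 rose from a mean of 8.03 FPKM at day 0 to 16.6 at day 10, and Ndufaf2 fell from 55.9 to 20.9. Ndufaf4, which works with Ndufaf3 in complex I assembly, rose from 11.9 FPKM at day 0 to 19.8 at day 10 and fell to 5.56 at day 20, its lowest day as for Ndufab1 and Ndufc1. Of 31 further assembly factors outside the symbol rule, 7 rose and 15 fell at day 4 as deposited, but 13 rose and 11 fell after rescaling and 5 rose and 19 fell after quantile normalization, so the direction of this list depended on scaling. The copper chaperone Cox17 fell from 469 to 121 FPKM.

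Other genes of the pathway came from lists drawn up with earlier results of these data known. Their counts stand beside 47% of all genes rising and 35.5% falling at day 4 as deposited. At day 20 these shares were 55.3% and 35.5%. Of 15 regulators of mitochondrial genes 3 rose and 11 fell at day 20: Nrf1, a factor that binds many promoters of the chain, went from 73.3 FPKM at day 0 to 13.9 at day 20, and Tfam, which packages and transcribes mitochondrial DNA, from 86.0 to 38.4. Esrra, an orphan nuclear receptor of the same programme, rose from 13.3 to 33.4 FPKM, and the coactivator Ppargc1a rose from 0.01 to 5.81. Of 15 genes of protein import and mitochondrial mass 14 fell at day 20 in all 3 scalings, with a median of -1.14 as deposited and -0.93 after quantile normalization, beside -0.19 and -0.08 for the chain. Hspd1 and Hspe1, the matrix chaperonin pair, had log2 changes of -1.97 and -1.97. Of 20 genes of the citric acid cycle and pyruvate dehydrogenase 2 rose and 15 fell at day 4 (5 and 10 after rescaling, 4 and 15 after quantile normalization). Of 10 genes of fusion, fission and turnover 8 rose and 2 fell at day 20 in all 3 scalings, including Pink1, a kinase of mitochondrial turnover (log2 change of 3.11). Ucp2, a carrier of the inner membrane, went from 153 FPKM at day 0 to 40.6 at day 4 and 571 at day 20.

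Promoters were searched for letters bound by known regulators of the chain, as a description. The letters searched, on both strands and in the 250 bases before and 50 after the gene start, were GCGCATGCG for Nrf1 (NRF1), AAGATGGC for YY1, CCGGAAGT for ETS factors and TCAAGGTCA for Esrra-type receptors. The NRF1 letters and their reverse complement overlap, so 1 stretch can match on both strands. Of 77 members with a promoter, 10 (13%) held the NRF1 letters, against 3.8% of 11492 genes tested, and 10 (13%) held the YY1 letters, against 4.73%. The YY1 letters lay 10 to 38 bases after the gene start in all of these members but Atp5j, where they lay 88 bases before it. The ETS letters were held by 5 members (6.49%), against 8.11% of genes tested. Only 2 members (2.6%), Atp5g3 and Sdhd, held the receptor letters, against 0.331%, so that share rests on 2 genes. Windows around the NRF1 letters (in capitals) are shown for the 5 members that carry them on both strands before the gene start, from RefSeq on GRCm38.p6.
Ndufaf4 (chr4:24897960-24897988, plus strand): ccagatgtctGCGCATGCGcctgtgcgga
Atp5k (chr5:108434431-108434459, minus strand): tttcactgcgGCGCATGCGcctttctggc
Cox6a1 (chr5:115349102-115349130, minus strand): caggaacgggGCGCATGCGcgctctcgct
Atp5g2 (chr15:102671071-102671099, minus strand): ggctccggccGCGCATGCGcagagccttc
Ndufa11 (chr17:56717692-56717720, plus strand): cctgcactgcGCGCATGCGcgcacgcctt
These genes did not share a day of highest mean as deposited: it was day 10 for Ndufaf4 and Ndufa11, day 2 for Atp5k and Atp5g2, and day 20 for Cox6a1. From day 10 to day 20 Ndufaf4 fell (log2 change of -1.67). Cox6a1 had a mean of 901 FPKM at day 20 and 695 at day 0, but the libraries overlapped (796 to 1075 and 554 to 823 FPKM). Its day-0 means were 585 FPKM in replicates 1 to 3 and 778 in replicates 4 to 7. A match is a description of letters and is not a site shown to be bound.

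In the annotation, 29 of the 94 genes overlap another annotated gene, among them Atp5a1 (Haus1), Cox4i2 (Bcl2l1), Ndufa4l2 (Shmt2) and Cox7a2 (Tmem30a), and Atp5b and Cox7c hold small nucleolar RNA genes. Whether the counting used strand is not given in the sources used here, so reads of such neighbours cannot be told apart. Many of these abundant genes also have near-identical processed copies in the genome, which makes their levels uncertain where reads could be split between copies.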

How the data were processed

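The authors deposited 1 table of expression values for 22 polyA RNA libraries. Its unit is not given in the file or in the sources used here, and the values were taken as FPKM from the values themselves, which is uncertain. Per the submitters' processing notes RSEM and mm9 were used, with no version or role given. Per the labels' protocols RNA was extracted with RNeasy columns and libraries were made with NEBNext Ultra. The deposited FPKM values hold no read counts, so depth is unknown and no counting interval is given. An openness table from ATAC-seq was not used here.

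Values were fitted as log2(FPKM + 1) with limma 3.58.1 in R 4.3.3: 1 mean per day over all 22 libraries, empirical Bayes with trend and 17 residual degrees of freedom. Genes with at least 1 FPKM in at least 3 libraries were tested (14982 of 21960), and p-values were adjusted by Benjamini-Hochberg over them, with calls at an adjusted p under 0.05, 2-sided, in 7 comparisons. Adding 1 shrinks differences of genes near or under 1 FPKM. Isoform pairs were compared as log2((isoform + 1)/(partner + 1)) per library by 2-sided exact permutation tests against day 0, adjusted over 40 tests, with Python 3.11.15, numpy 2.4.6, pandas 2.3.3 and SciPy 1.17.1. The fit was tested on simulated data.

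The genes and lists were chosen with earlier results of these data known. Named genes are all isoform pair members, core subunits, the 2 most abundant genes per complex, and the 3 largest changes in each direction and comparison among called genes without overlap and with a day mean of at least 5 FPKM; others named were chosen after their values were seen. They are Ndufs6, Ndufb4, Ndufb6, Cox5a, Uqcrh, Atp5k and Ndufa11. A gene that the rule names is not reported here. Alternatives were another pseudocount (0.1), no filter, a filter of 5 FPKM, 2 rescalings, no trend, only the libraries of the 2 days compared, a replicate block, each set of day-0 libraries alone, and each library left out. Promoter sequences come from RefSeq (GRCm38.p6) and matched 77 of 94 genes by symbol.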

Additional observations from a re-analysis of the deposited data

Results flagged for a closer look

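Single libraries stood apart from the rest of their day by Dixon's criterion in 8 of 156 groups of 4 to 10 libraries examined, and chance alone flags about 1 group in 20. Cox4i2 was 1.24 FPKM in day-0 replicate 6 and 0.36 to 0.64 FPKM in the other day-0 libraries. Ndufaf3 was 5.43 FPKM in day-0 replicate 5 and 7.9 to 9.33 FPKM in the others. Ndufs3 was 79.52 FPKM in day-0 replicate 3 and 84.51 to 87.08 FPKM in the others. Day-10 replicate 3 stood apart for Sdha, with 101.63 FPKM against 127.11 to 134.83 FPKM, and for Uqcrfs1, with 103.5 FPKM against 99.38 to 100.22 FPKM. Day-20 replicate 1 stood apart for Cox6b1, with 339.5 FPKM against 312.5 to 316.39 FPKM, and for Uqcrq, with 287.95 FPKM against 271.47 to 273.86 FPKM. Complex IV held 0.874911% of library FPKM in day-10 replicate 2 and 0.849577% to 0.855285% in the other day-10 libraries.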

How the results depend on the processing

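Scaling moved the results most. With libraries rescaled to the same sum, 30 genes were higher at day 4 against day 0, 51 higher and 26 lower at day 10, 42 higher and 37 lower at day 20, 17 higher at day 4 against day 2, 6 lower at day 10 against day 4 and 19 higher at day 20 against day 10. After quantile normalization 33 were lower at day 10 against day 0, 8 higher at day 4 against day 2, 9 lower at day 10 against day 4 and 24 higher at day 20 against day 10. Cox4i1 changed sign against day 0, to 0.10 and 0.54 (rescaled and quantile) at day 10 and to 0.063 and 0.40 by day 20, Cox4i2 to -0.23 at day 20 after quantile normalization, and the Cox4i2 to Cox4i1 ratio to -0.14 and -0.63 at days 10 and 20. The cause was not tested. The median of members minus all genes was 0.15, -0.35, -0.27 and -0.29 for days 2, 4, 10 and 20 without a filter, which adds low genes. It was -0.39 and -0.39 for days 4 and 10 and -0.43 for day 4 against day 2 after rescaling, and -0.15, 0.085, 0.018 and -0.20 (days 4, 10, 20 and day 4 against day 2) after quantile normalization. It was -0.42 at day 4 with day-0 replicates 1 to 3 alone and -0.54 at day 10 with replicates 4 to 7 alone. Relative to all members, the median of complex I at day 20 was 0.10 after rescaling and 0.16 after quantile normalization, that of complex III at day 4 was -0.37 after quantile normalization, that of complex IV at day 4 was -0.11 and that of complex V was 0.11 at day 4 and -0.0077 at day 20. With day-0 replicates 1 to 3 alone the values were 0.36 (complex II, day 20), -0.37 (III, day 4), -0.30 (IV, day 4) and -0.087 (V, day 4), and with replicates 4 to 7 alone 0.14 (III, day 20) and 0.027 (V, day 4). With either set alone 0 isoform ratios passed, since the smallest adjusted p they allow is 0.1 and 0.0571, so this says nothing of stability. Leaving out 1 library gave 1 to 2 higher genes at day 4 against day 2, 0.041 to 0.092 for complex I and -0.31 to -0.19 for complex V at day 20, and 19 to 28 isoform ratios. Leaving out a day-2 or day-4 library leaves those days unable to pass. Deviations of same-numbered libraries from their day means had a median r of 0.00181 over 34 pairs (range -0.146 to 0.219). For libraries of other number it was 0.00105 over 154 pairs. The labels do not say whether a number links libraries, and these correlations cannot settle it, because linked libraries need not deviate alike. With a replicate block all 14 counts of members stayed within 1.5 times, and of 107 changes of single members 1 call was lost (Atp5a1 at day 4 against day 2, adjusted p = 0.0832 by limma).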
